A study of Homo sapiens with 6 samples.

Results

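This set holds 10 genes of the hepatic acute-phase response: the orosomucoid genes ORM1 and ORM2, haptoglobin (HP), hemopexin (HPX), the serum amyloid A genes SAA1, SAA2 and SAA4, lipopolysaccharide-binding protein (LBP), C-reactive protein (CRP) and the feedback inhibitor SOCS3. They were picked by name, as 10 of the 50868 genes in the table, with earlier results of the same libraries known, so their values in the comparison are a description. They were measured by RNA sequencing in 6 libraries of Huh7, a human liver cancer cell line whose genotype is labelled WT. Of these, 3 came from cells given the peptide P-T3H2 and 3 from cells given the control peptide P-T3H2-2A, both at 20 µM over 5 days. All cells therefore received a peptide, and no untreated cells were analysed here. The study asked how gene expression responds to P-T3H2, a cell-penetrating peptide that its design text links to the hepatocyte transcription factor HNF4α.

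In the acute-phase response the liver changes its output of plasma proteins on signals from inflamed tissue. Interleukin-6 and its relatives bind receptors that share the subunit gp130, JAK kinases then phosphorylate the transcription factor STAT3, and STAT3 acts on liver promoters together with C/EBP factors and, for some genes, NF-κB under interleukin-1. SOCS3 is itself induced by STAT3 and shuts the receptor complex down. Orosomucoids are lipocalin carriers of plasma, haptoglobin binds free haemoglobin, hemopexin binds free haem, serum amyloid A proteins ride on lipoproteins, and LBP and CRP recognise bacterial or damaged-cell surfaces.

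ORM1 (ENSG00000229314, chromosome 9, 114323056 to 114326475) and ORM2 (ENSG00000228278, chromosome 9, 114329869 to 114333252) lie next to each other on the plus strand of GRCh38. Their coding sequences had 603 bases each and differed at 31 of them, an identity of 94.9% in GENCODE release 29. The 60 coding bases in which they differed most, from base 338 to base 397 of each coding sequence, are shown because reads from such stretches tell the copies apart. Capitals mark the 14 differing positions.
ORM1: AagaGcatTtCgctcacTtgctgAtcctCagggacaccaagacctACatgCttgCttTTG
ORM2: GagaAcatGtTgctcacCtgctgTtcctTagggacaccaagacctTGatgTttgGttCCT
Elsewhere the copies were alike: 33.7% of all 100-base stretches of the ORM1 transcript were also present in ORM2. How the counting treated reads that fit both is not given in the sources used here, so the split between the copies is uncertain while their sum is less so. HP and its neighbour HPR were 95.6% identical over 1041 aligned coding bases, and SAA1 and SAA2 97.0% identical over 366, and the same caution holds for them.

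RefSeq promoter windows (GRCh38.p14) were at hand for 5 of the 10 genes, CRP, HPX, ORM1, SAA4 and SOCS3, the last with 2 windows. Those of 3 genes are shown because these genes were transcribed here and differed in how their levels compared between the groups, in each case the 250 bases before the annotated start, read 5′ to 3′ on the gene's strand. They are chr9:114322848-114323097 (plus strand) for ORM1, chr11:6440988-6441237 (minus strand) for HPX and chr11:18236803-18237052 (minus strand) for SAA4. Capitals mark matches to a C/EBP pattern, TTNNGCAA, on either strand.
ORM1: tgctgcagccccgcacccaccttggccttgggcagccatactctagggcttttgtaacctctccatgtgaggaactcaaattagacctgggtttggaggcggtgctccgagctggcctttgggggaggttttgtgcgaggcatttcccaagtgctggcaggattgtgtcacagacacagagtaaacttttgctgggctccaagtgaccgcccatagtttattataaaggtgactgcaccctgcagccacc
HPX: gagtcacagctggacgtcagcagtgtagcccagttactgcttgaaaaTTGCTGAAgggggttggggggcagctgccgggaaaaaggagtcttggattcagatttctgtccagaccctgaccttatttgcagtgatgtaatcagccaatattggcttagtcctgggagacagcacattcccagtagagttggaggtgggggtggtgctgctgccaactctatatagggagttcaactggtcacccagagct
SAA4: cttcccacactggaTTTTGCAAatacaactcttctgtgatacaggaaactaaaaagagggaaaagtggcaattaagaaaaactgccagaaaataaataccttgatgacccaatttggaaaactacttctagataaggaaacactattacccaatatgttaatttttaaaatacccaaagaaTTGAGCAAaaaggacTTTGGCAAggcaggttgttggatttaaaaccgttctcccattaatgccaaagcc
Windows of 300 bases, these 250 and the 50 after the start, were searched on both strands for the C/EBP pattern, a STAT pattern (TTCNNNGAA), the κB consensus, an HNF4 pattern (CAAAGTCCA) and a glucocorticoid receptor pattern. The C/EBP pattern was found 1 time in HPX and 3 times in SAA4, in places that do not overlap, and it was present in 10.5% of the 35116 promoter windows searched. None of the other patterns had a match in any of the windows of these 5 genes, where 7.66% of all windows held the STAT pattern, 5.91% the κB consensus, 0.384% the HNF4 pattern and 0.39% the glucocorticoid receptor pattern. Only these exact patterns were searched, so a window without a match may still hold another form of a site. The ORM1, CRP and SOCS3 windows held no match to any pattern searched. Those of SOCS3 were chr17:78359618-78359917 and chr17:78360876-78361175 (minus strand). Neither holds position 78360077, where SOCS3 starts in the deposited coordinates, or the bases just before it. That stretch was not searched.

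Total counts per library lay between 17434442 and 21374732, so that 3 counts, the floor used here, correspond to 0.14 to 0.172 CPM (counts scaled to a library total). Whether replicates were grown separately is not stated, so p-values measure only the spread between these libraries, which may be technical. The library labelled P-T3H2-2A-3 (replicate 3 of that group) went against its label for most genes: it lay nearer to the P-T3H2 mean than to the mean of P-T3H2-2A replicates 1 and 2 for 78.7% of 15946 genes tested. The share of counts on mitochondrially encoded genes moved the same way, at 7.30, 7.64 and 7.85% in the P-T3H2 libraries and 6.27, 6.25 and 7.32% in replicates 1, 2 and 3 of P-T3H2-2A, and its part in the results was not tested. Each comparison is therefore given with all 6 libraries and without the library labelled P-T3H2-2A-3. Values are CPM scaled by total and TMM factor, and fold changes are P-T3H2 over P-T3H2-2A.

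The orosomucoid genes stood far lower with P-T3H2 than in replicates 1 and 2 of P-T3H2-2A, where they had the highest levels of the 10. ORM1 had 17.8, 23.0 and 18.8 CPM in replicates 1, 2 and 3 of P-T3H2, against 136.5, 142.7 and 23.1 CPM in replicates 1, 2 and 3 of P-T3H2-2A. The P-T3H2 libraries were all low and the library labelled P-T3H2-2A-3 was low with them: it lay just above the highest P-T3H2 library, with 490 counts there against 477 in P-T3H2 replicate 2. ORM1 averaged 19.9 ± 2.75 CPM with P-T3H2 and 101 ± 67.4 CPM with P-T3H2-2A (SD, n = 3 each), a log2 fold change of -2.34 with a standard error (SE) of 0.63. Without the library labelled P-T3H2-2A-3 the log2 fold change was -2.81 (SE 0.11), and the mean was 7.02-fold lower, against 5.07-fold lower with all libraries.

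ORM2 stood at a somewhat lower level. It had 13.03, 19.0 and 13.5 CPM in replicates 1, 2 and 3 of P-T3H2, against 86.4, 93.2 and 15.4 CPM in replicates 1, 2 and 3 of P-T3H2-2A. Here the library labelled P-T3H2-2A-3 fell inside the P-T3H2 range, so the groups overlapped through that library. The means were 15.2 ± 3.34 CPM with P-T3H2 and 65.0 ± 43.1 CPM with P-T3H2-2A (SD, n = 3 each). The log2 fold change was -2.10 (SE 0.63) with all libraries and -2.56 (SE 0.17) without that library.

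The proportion between the copies was compared as the ORM2 share of their summed counts. ORM2 made up 42.2, 45.3 and 41.8% of the counts on both genes in replicates 1, 2 and 3 of P-T3H2, against 38.8, 39.5 and 40.0% in replicates 1, 2 and 3 of P-T3H2-2A. Every P-T3H2 library lay above every P-T3H2-2A library, and the means were 43.1 ± 1.92% and 39.4 ± 0.632% (SD, n = 3 each). The two-sided exact permutation p was 0.1, the smallest p that 3 against 3 libraries allow, so the difference in share could not pass a threshold of 0.05. Without the library labelled P-T3H2-2A-3 the P-T3H2-2A mean was 39.1 ± 0.516% (SD, n = 2), and the exact permutation p was 0.2. That is the smallest that 3 against 2 libraries allow when the two-sided p is the doubled one-sided p. The 95% Wilson intervals, which cover counting error only, ran from 42.0 to 48.6% in P-T3H2 replicate 2, above those of P-T3H2-2A replicate 1 (37.2 to 40.3%) and replicate 2 (38.1 to 40.9%). The interval of P-T3H2 replicate 2 overlapped that of the library labelled P-T3H2-2A-3 (36.7 to 43.4%). The intervals of P-T3H2 replicates 1 (38.5 to 46.0%) and 3 (38.1 to 45.5%) overlapped the interval of every P-T3H2-2A library.

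**Figure D1:**
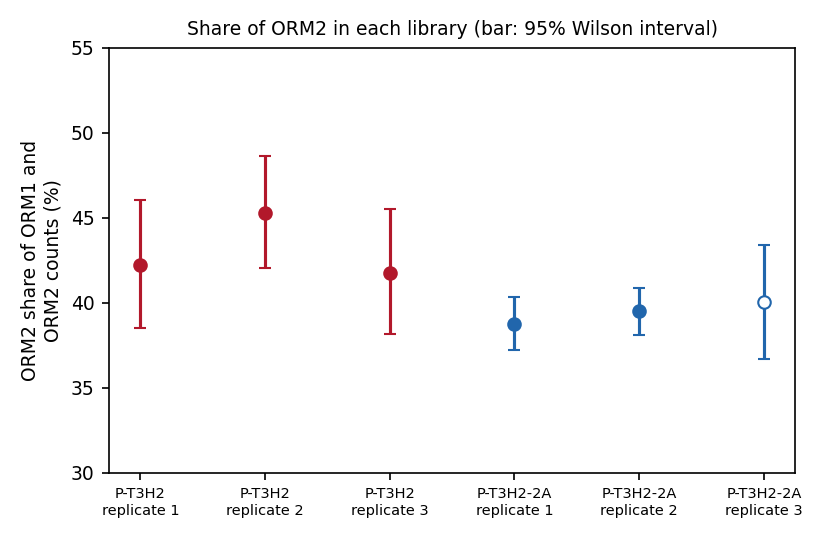
ORM2 counts as a percentage of ORM1 and ORM2 counts (vertical axis, from 30 to 55%) in each library (horizontal axis), with 95% Wilson intervals as bars. P-T3H2 libraries are red and P-T3H2-2A libraries blue, with the library labelled P-T3H2-2A-3 open. The P-T3H2 shares run from 41.8 to 45.3% and the P-T3H2-2A shares from 38.8 to 40.0%.

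The 2 haem-related scavengers differed from each other. HP (ENSG00000257017, chromosome 16, 72054592 to 72061055) had 0.745, 1.88 and 1.27 CPM in replicates 1, 2 and 3 of P-T3H2, against 7.51, 7.37 and 1.22 CPM in replicates 1, 2 and 3 of P-T3H2-2A. These levels rest on 16 to 39 counts in the P-T3H2 libraries, and on 130, 149 and 26 counts in the P-T3H2-2A libraries. P-T3H2 libraries were low, P-T3H2-2A replicates 1 and 2 were high, and the library labelled P-T3H2-2A-3 lay inside the P-T3H2 range. The log2 fold change of HP was -2.04 (SE 0.70) with all libraries and -2.52 (SE 0.31) without that library. HPR, the haptoglobin-related gene next to HP, is not among the 10 and was tested in the same model. It had 0.651, 1.01 and 0.988 CPM with P-T3H2, against 6.76, 7.07 and 0.942 CPM in replicates 1, 2 and 3 of P-T3H2-2A. HPR did not pass with all libraries in edgeR (log2 fold change -2.46, adjusted p = 0.275) and was lower without the library labelled P-T3H2-2A-3 (-2.96, SE 0.21, edgeR adjusted p = 8.14e-05). The HPR share of HP and HPR counts averaged 41.8 ± 6.07% with P-T3H2 and 46.6 ± 2.83% with P-T3H2-2A (SD, n = 3 each; exact permutation p = 0.3), and 48.2 ± 1.13% in replicates 1 and 2 of P-T3H2-2A (exact permutation p = 0.2 against P-T3H2). TXNL4B overlaps both HP and HPR on the opposite strand, and the strand setting of the counting is not given in the sources used here. Reads of TXNL4B may therefore not be fully separated from those of HP and HPR.

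HPX (ENSG00000110169, chromosome 11, 6431049 to 6442617) stood at much the same level in both groups. It had 37.5, 37.2 and 38.02 CPM in replicates 1, 2 and 3 of P-T3H2, against 34.4, 32.6 and 39.8 CPM in replicates 1, 2 and 3 of P-T3H2-2A. The highest value was that of the library labelled P-T3H2-2A-3, and the groups overlapped through it. The log2 fold change was 0.08 (SE 0.10) with all libraries and 0.16 (SE 0.07) without that library.

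Among the serum amyloid A genes only SAA4, the constitutively expressed form in human plasma, was detected beyond single reads. SAA4 (ENSG00000148965, chromosome 11, 18231349 to 18236893) had 9.12, 9.84 and 9.32 CPM in replicates 1, 2 and 3 of P-T3H2, against 12.5, 11.2 and 12.99 CPM in replicates 1, 2 and 3 of P-T3H2-2A. All P-T3H2 libraries lay below all P-T3H2-2A libraries, and the library labelled P-T3H2-2A-3 was the highest of the 6, on the side of its label. SAA4 averaged 9.42 ± 0.37 CPM with P-T3H2 and 12.2 ± 0.909 CPM with P-T3H2-2A (SD, n = 3 each). Its log2 fold change was -0.38 (SE 0.12) with all libraries and -0.33 (SE 0.11) without that library. The inducible SAA1 (ENSG00000173432, chromosome 11, 18266174 to 18269977) had 1 count, in P-T3H2 replicate 3, and the inducible SAA2 (ENSG00000134339, chromosome 11, 18239223 to 18248643) had 1 count, in P-T3H2 replicate 1, with 0 in every other library. The readthrough row SAA2-SAA4, which shares sequence with both, had 3 counts, all in P-T3H2-2A replicate 1.

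The 2 genes of pattern recognition were at or near 0. CRP (ENSG00000132693, chromosome 1, 159712289 to 159714589) had 0 counts in all 6 libraries, which allows a level of up to 0.14 to 0.172 CPM per library by the floor of 3 counts. LBP (ENSG00000129988, chromosome 20, 38346356 to 38377023) had 0 counts in every P-T3H2 library, against 1, 4 and 0 counts in replicates 1, 2 and 3 of P-T3H2-2A. With so few counts no difference in LBP was detectable at this depth.

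SOCS3 (ENSG00000184557, chromosome 17, 78356778 to 78360077), the inhibitor of gp130 receptors, was present at a low level. It had 1.91, 1.16 and 1.36 CPM in replicates 1, 2 and 3 of P-T3H2, against 1.39, 1.19 and 1.41 CPM in replicates 1, 2 and 3 of P-T3H2-2A. These values rest on 24 to 41 counts per library, the highest and the lowest library were both P-T3H2 libraries, and the groups overlapped throughout. Its log2 fold change was 0.15 (SE 0.26) with all libraries and 0.20 (SE 0.29) without the library labelled P-T3H2-2A-3. It was -0.07 without P-T3H2 replicate 1, so its sign rested on that library.

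**Figure D2:**
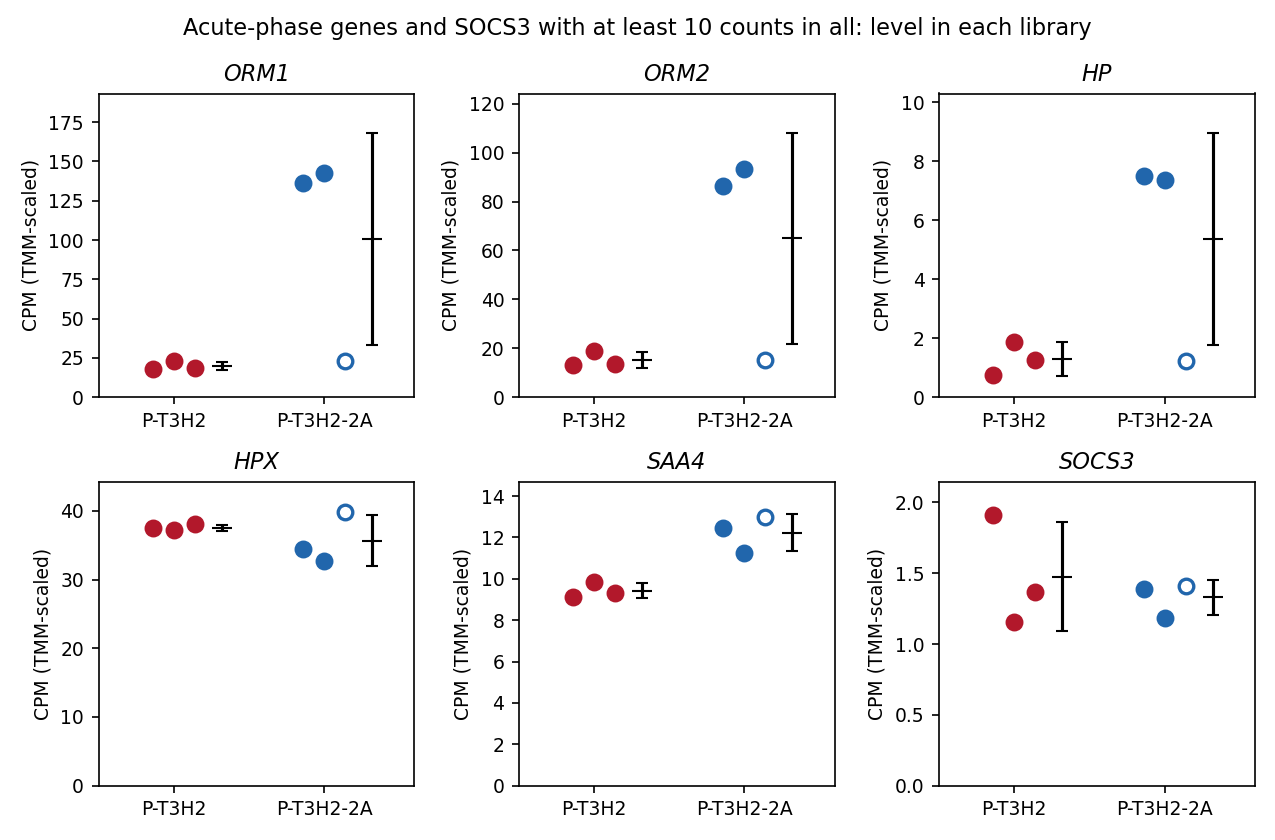
CPM in each library (vertical axes, linear and starting at 0) for the 6 genes with at least 10 counts in all, P-T3H2 in red and P-T3H2-2A in blue, with the library labelled P-T3H2-2A-3 open, and means with SD (n = 3 each) in black. In ORM1, ORM2 and HP the open point lies at the P-T3H2 level, in SAA4 it lies at 12.99 CPM above all P-T3H2 libraries, and HPX and SOCS3 show no wide gap between groups.

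Of the 10 genes, 6 had enough counts to be tested and 4 (SAA1, SAA2, LBP and CRP) had under 10 counts over all libraries. With all 6 libraries edgeR called none of the 6 at an adjusted p under 0.05, where 0.00627% of all genes tested were called, and limma-voom called none. At an unadjusted p under 0.05 there were 4 of the 6, where 18% of all genes tested stood. DESeq2 called 2 of the 6, ORM1 and ORM2, both lower, where it called 0.716% of all genes, 0.508% lower. Without the library labelled P-T3H2-2A-3 edgeR called 4 lower (ORM1, ORM2, HP and SAA4) and none higher, where 22.8% of all genes tested were called lower and 22.6% higher. DESeq2 without that library called 3 lower (ORM1, ORM2 and HP, not SAA4), where it called 19.1% of all genes lower and 18.7% higher. CPM of the groups did not overlap for 2 of the 6 with all libraries, ORM1 and SAA4, both lower with P-T3H2, where 11.6% of all genes were so placed and 23.4% did not overlap in either direction. Without that library this held for 4 lower and 1 higher, HPX, where 33.3% of all genes lay lower, 33.9% higher and 67.2% in either direction. Since the genes were chosen with this comparison known, nothing is read from these counts.

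**Figure D3:**
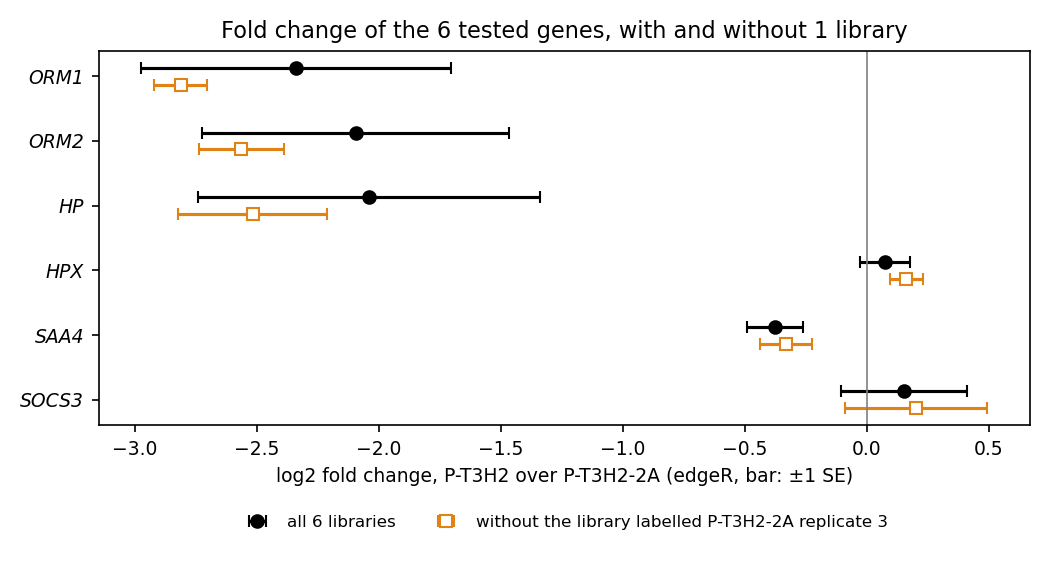
Log2 fold change of P-T3H2 over P-T3H2-2A from edgeR (horizontal axis) for the 6 tested genes, with bars of 1 SE. Filled black points use all 6 libraries and open orange squares leave out the library labelled P-T3H2-2A-3. ORM1, ORM2 and HP lie between -2.81 and -2.04 in both, and SAA4, HPX and SOCS3 between -0.38 and 0.20.

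By size of change, ORM1, ORM2 and HP stood among the lowest fold changes in the table: with all libraries they were number 14, 22 and 25 of 15946 genes, counted from the most lowered. Without the library labelled P-T3H2-2A-3 they were number 26, 35 and 38 of 16281. SAA4 was number 2532 with all libraries and number 4155 without that library.

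Levels were compared between genes per kilobase of the transcript with the longest coding sequence, as CPM per kb. With P-T3H2 the order was ORM1 at 24.8 ± 3.42, HPX at 22.7 ± 0.261, ORM2 at 20.0 ± 4.40, SAA4 at 12.96 ± 0.509, HP at 0.876 ± 0.384 and SOCS3 at 0.54 ± 0.142 CPM per kb (SD, n = 3). Within each P-T3H2 library ORM1 stood above ORM2, at 22.2, 28.7 and 23.5 against 17.1, 25.1 and 17.8 CPM per kb in replicates 1, 2 and 3. HPX, at 22.7, 22.5 and 23.0, lay within the range of ORM1 and of ORM2, and the ranges of HP and SOCS3 overlapped. In replicates 1 and 2 of P-T3H2-2A the order was wider: ORM1 stood at 170 and 178, ORM2 at 114 and 123, HPX at 20.8 and 19.8, SAA4 at 17.2 and 15.4, HP at 5.07 and 4.97 and SOCS3 at 0.507 and 0.434 CPM per kb. In the library labelled P-T3H2-2A-3 it was close to that with P-T3H2: ORM1 stood at 28.8, HPX at 24.1, ORM2 at 20.3, SAA4 at 17.9, HP at 0.826 and SOCS3 at 0.517 CPM per kb. The length used matters for this order. The deposited FPKM of HP implied a length of 13598 bases, against a transcript of 1482 bases, and that of HPX implied 6671 bases, against 1652. By deposited FPKM, HPX averaged 5.64 with P-T3H2 and 5.33 with P-T3H2-2A and stood below SAA4 at 12.99 and 16.8. The order at the top turned as well, with ORM2 at 20.0 and ORM1 at 19.1 FPKM with P-T3H2, where the implied length of ORM1 was 1045 bases against the 802 used here.

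Likeness of pattern was measured as the root-mean-square difference of log2 CPM over the 6 libraries, each gene centred on its own mean, among 11393 genes with a mean of at least 5 CPM. For both ORM1 and ORM2 the nearest genes outside the 10 were KNG1, which encodes kininogen, and FGG, the fibrinogen gamma chain gene. KNG1 differed from ORM2 by 0.07 and from ORM1 by 0.11 on the log2 scale, and FGG by 0.10 and 0.14. ORM1 and ORM2 differed from each other by 0.13, and thus no less than from KNG1. KNG1 had 40.3, 51.4 and 40.0 CPM in replicates 1, 2 and 3 of P-T3H2, against 262, 260.3 and 47.3 CPM in replicates 1, 2 and 3 of P-T3H2-2A. For SAA4 the nearest were ANKRD28 and MBIP, at 0.05 and 0.06, and for HPX they were PRRC1 and PARP3, both at 0.02. Within 0.15 lay 3490 genes for HPX, 473 for SAA4, 3 for ORM2 and 2 for ORM1.

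The genes around the response were taken from 15 lists with 138 genes outside the 10. With all 6 libraries edgeR called none of the 112 tested, 26 had an unadjusted p under 0.05, where 18% of all genes had one, and DESeq2 called 6, all lower (FGA, FGB, FGG, TF, MBL2 and HPR), where it called 0.508% of all genes lower. Without the library labelled P-T3H2-2A-3 edgeR called 75 of 115, 41 higher and 34 lower. Over all genes tested, 45.4% were called there, 22.6% higher and 22.8% lower. The counts and fold changes that follow are from edgeR in that comparison. With all 6 libraries none of these genes passed in edgeR, and a value or median given second is from all 6. In the comparison without that library, the median log2 fold change over all 16281 genes was 0.0028.

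Of the interleukin-6 family ligands, 3 of 7 could be tested, and CTF1, the cardiotrophin gene, rose by 1.91 and none fell (median log2 fold change 1.24, and 0.87 with all libraries). CTF1 rested on 16, 10 and 13 counts with P-T3H2, against 1, 5 and 14 counts in replicates 1, 2 and 3 of P-T3H2-2A. Without the library labelled P-T3H2-2A-3 it passed the filter only through its counts with P-T3H2, so nothing is read from its rise. Its groups overlapped with all libraries (log2 fold change 0.87), and DESeq2 on the same 5 libraries did not call it (adjusted p = 0.085). IL6 itself had 0.279, 0.434 and 0.471 CPM with P-T3H2, against 0.0578, 0.148 and 0.188 CPM with P-T3H2-2A, too few counts for the test, and OSM had 0 counts in every library. Of the 7 receptors 3 rose and none fell, with a median of 0.11, and 0.14 with all libraries. OSMR, the oncostatin M receptor, stood at 132, 119 and 135 CPM with P-T3H2, against 39.2, 37.5 and 129.7 CPM in replicates 1, 2 and 3 of P-T3H2-2A. It rose by 1.75 on the log2 scale (SE 0.07, edgeR adjusted p = 1.62e-05), against 0.90 with all libraries (adjusted p = 0.304). IL6R, the interleukin-6 receptor, and LIFR, the leukaemia inhibitory factor receptor, rose by 0.46 and 0.43, against 0.23 and 0.26 with all libraries. The gp130 gene IL6ST had values of 0.04 and -0.03.

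Of 12 JAK, STAT and partner genes 6 rose and 2 fell (median 0.17, and 0.12 with all libraries). STAT3 stood at 102, 97.1 and 96.9 CPM with P-T3H2, against 49.6, 54.1 and 96.6 CPM in replicates 1, 2 and 3 of P-T3H2-2A. It rose by 0.93 (SE 0.06, edgeR adjusted p = 7.18e-05), against 0.56 with all libraries (adjusted p = 0.278). JAK2 and JAK1, kinases of the receptor complex, rose by 1.29 and 0.15, against 0.84 and 0.11 with all libraries. The JAK1 call (edgeR adjusted p = 0.0445) was lost in DESeq2 on the same 5 libraries (adjusted p = 0.0845). PIAS3, an inhibitor of STAT3, had values of 0.19 and 0.14 and did not pass.

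Among the relatives of SOCS3, 6 of 7 could be tested, and SOCS4, SOCS5 and SOCS6 rose while CISH fell (median 0.16, and 0.07 with all libraries). DESeq2 on the same 5 libraries called 2 higher and none lower: SOCS6 (edgeR adjusted p = 0.0491) had an adjusted p of 0.0915 and CISH (edgeR adjusted p = 0.0487) one of 0.224. SOCS1, the nearest relative of SOCS3 in function, had 3.54, 4.87 and 3.76 CPM with P-T3H2, against 5.43, 5.29 and 3.95 CPM with P-T3H2-2A, and did not pass (log2 fold change -0.40, SE 0.18). CISH rested on levels of 0.235 to 1.16 CPM, and SOCS2 was too low to test. Of 13 other STAT3 target genes 7 rose and 1 fell (median 0.26, and 0.19 with all libraries). BCL3, a nuclear IκB protein, stood at 31.6, 31.3 and 36.2 CPM with P-T3H2, against 13.3, 12.96 and 28.0 CPM in replicates 1, 2 and 3 of P-T3H2-2A. It rose by 1.33 (SE 0.10, edgeR adjusted p = 9.55e-05), against 0.87 with all libraries (edgeR adjusted p = 0.275). The kinase gene PIM1 and the transcription factor gene JUNB rose by 0.67 and 0.76, against 0.48 and 0.42 with all libraries, and the 1 that fell was FGL1, which encodes a secreted liver protein.

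Of the interleukin-1 and TNF input genes, 9 of 12 could be tested, and 3 rose and 2 fell (median 0.27). With all libraries 8 could be tested, and their median was 0.19. A gene among those that fell passed the filter only through its counts in replicates 1 and 2 of P-T3H2-2A, so nothing is read from its fall. Without the library labelled P-T3H2-2A-3, a gene among those that rose passed only through its counts with P-T3H2, so nothing is read from its rise. Of 13 factors that bind acute-phase promoters 3 rose and 4 fell (median -0.09, and 0.05 with all libraries). CEBPA and CEBPB, the C/EBP factors of resting and induced liver, fell by 0.21 and 0.31, against -0.13 and -0.20 with all libraries. CEBPD, induced by STAT3 and listed there too, rose by 0.77, against 0.67, at levels of 2.18 to 4.80 CPM. HNF4A fell by 0.69, against -0.49 with all libraries. RELA and the glucocorticoid receptor gene NR3C1 did not pass, with values of 0.46 and -0.16, while NFKB1 rose by 0.26, against 0.15 with all libraries. Of 8 glucocorticoid target genes 4 rose and 2 fell (median 0.29, and 0.22 with all libraries). TSC22D3 rose by 3.68, against 1.33 with all libraries, and FKBP5 fell by 0.94, against -0.73.

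Other acute-phase genes did not move as one. Of 20 further positive acute-phase genes, which inflammation raises, 17 could be tested, and 6 rose and 10 fell (median -0.41). With all libraries 15 could be tested, and their median was -0.29. Among the 10 that fell, SERPINA3 and ITIH4 passed the filter only in the comparison without the library labelled P-T3H2-2A-3. They did so through their counts in replicates 1 and 2 of P-T3H2-2A, so nothing is read from their fall. In the same comparison a gene among the 6 that rose passed only through its counts with P-T3H2, so nothing is read from its rise. The fibrinogen genes FGA, FGB and FGG fell by 2.70, 1.99 and 2.52, against -2.27, -1.59 and -2.08 with all libraries. The protease inhibitor gene SERPINA1 and the complement gene C3 rose by 0.45 and 0.35, against 0.27 and 0.23. SERPINA1 had 2462, 2431 and 2523 CPM with P-T3H2, against 1849, 1757 and 2550.2 CPM in replicates 1, 2 and 3 of P-T3H2-2A. SERPINA3 fell from low levels, with at most 0.14 CPM with P-T3H2 and 0.693, 0.89 and 0.0471 CPM with P-T3H2-2A, so the size of its change is uncertain, and ITIH4 was likewise under 1 CPM in every library and was not called by DESeq2 (adjusted p = 0.0649). The ferroxidase gene CP fell by 0.41, against -0.33 with all libraries, and APCS, a relative of CRP, had 1 count over all libraries. Of 9 negative acute-phase genes, which inflammation lowers, 2 rose and 5 fell (median -0.39, and -0.30 with all libraries). TF and RBP4, plasma carriers of iron and retinol, fell by 0.39 and 0.46, against -0.37 and -0.30 with all libraries. ALB rose by 0.42, against 0.24, and TTR did not pass (-0.04).

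Receptors and partners of these plasma proteins were partly silent. Of 10 such genes 7 could be tested, and 1 rose and 5 fell (median -0.35, and -0.25 with all libraries), HPR among those that fell. CD163, the macrophage receptor for haemoglobin bound to haptoglobin, had 0 counts in every library. LRP1, a receptor for haem bound to hemopexin, fell by 0.35, and so did SCARB1, a lipoprotein receptor that also binds serum amyloid A, by 0.36, against -0.23 and -0.25 with all libraries. HMOX1, which breaks down haem, fell by 0.24, against -0.14 with all libraries, and DESeq2 on the same 5 libraries did not call it (adjusted p = 0.0573). TLR4, to which LBP passes lipopolysaccharide, was the 1 that rose, by 1.83, against 0.68 with all libraries. It stood at levels of at most 0.612 CPM, and DESeq2 on the same 5 libraries did not call it (adjusted p = 0.117). Without the library labelled P-T3H2-2A-3 it passed the filter only through its counts with P-T3H2, so nothing is read from its rise. Its partner LY96 was too low to test.

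**Figure D4:**
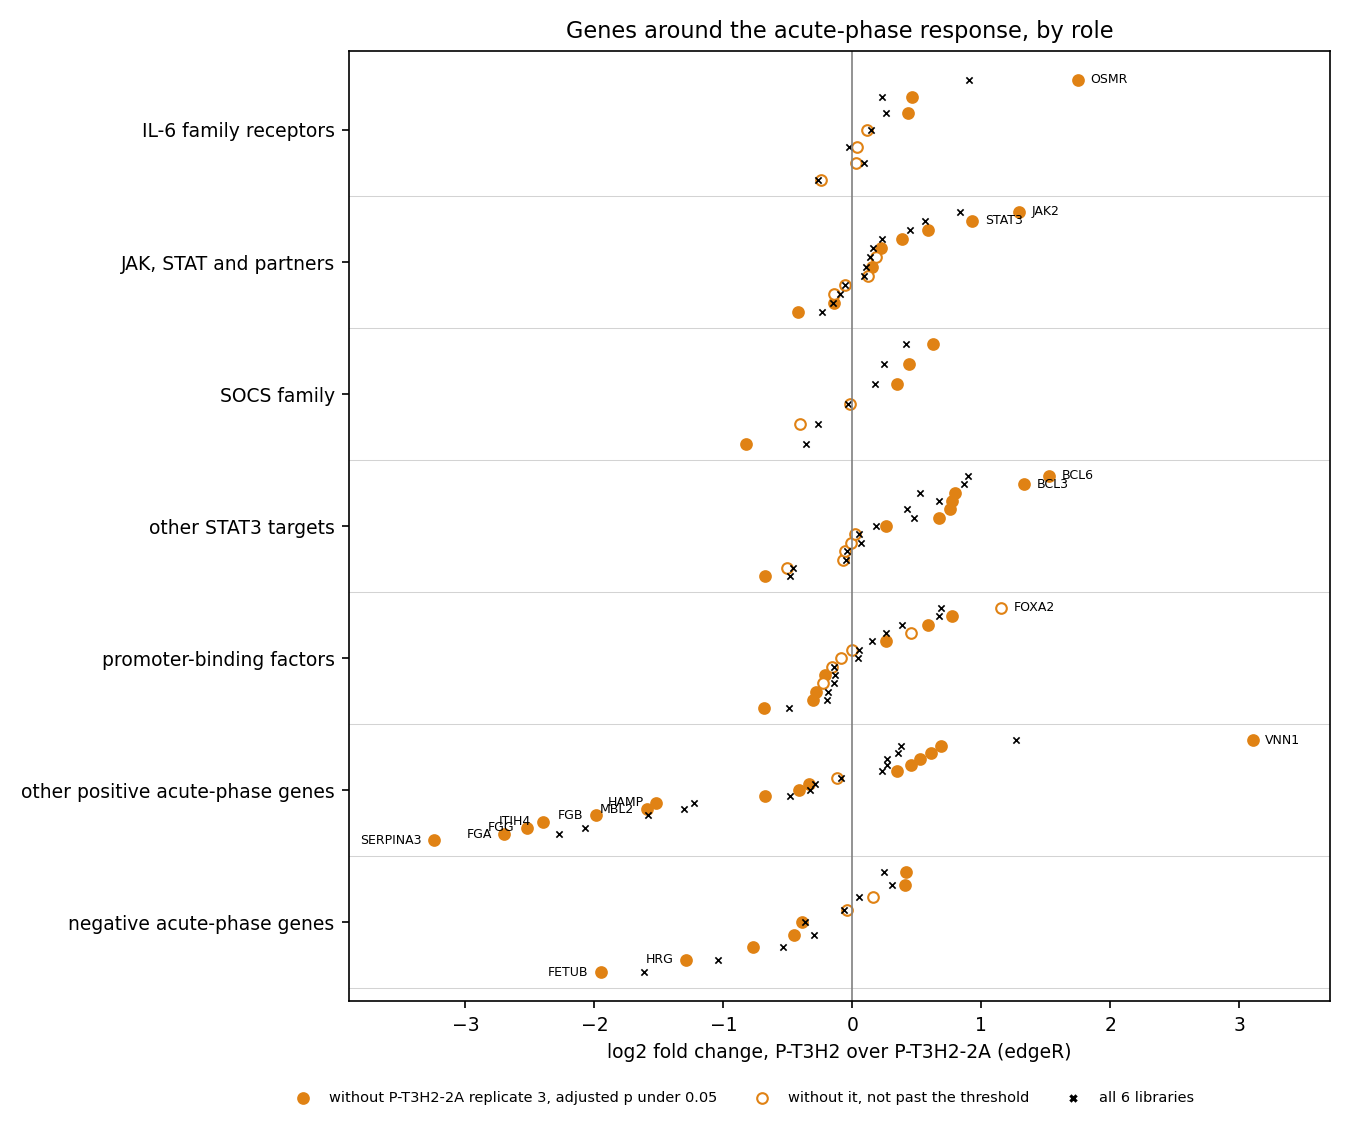
Log2 fold change of P-T3H2 over P-T3H2-2A (horizontal axis) for genes around the acute-phase response, by role (vertical axis). Orange circles leave out the library labelled P-T3H2-2A-3 (filled past an adjusted p of 0.05 in edgeR, open otherwise), and crosses use all 6 libraries, with names at a size of 0.9 or more. OSMR, JAK2, STAT3 and BCL3 lie to the right at 1.75, 1.29, 0.93 and 1.33, and FGA, FGB and FGG to the left at -2.70, -1.99 and -2.52.

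The libraries carried hepatocyte markers: all 10 on the list were tested, with summed levels of 30651 to 32278 CPM with P-T3H2 and 32883 to 33673 CPM with P-T3H2-2A. Without the library labelled P-T3H2-2A-3, 2 rose and 4 fell (median -0.11, and -0.10 with all libraries). Macrophage markers summed to 580.2 to 688 CPM with P-T3H2 and 137 to 656 CPM with P-T3H2-2A, nearly all of it LYZ, the lysozyme gene, at 576 to 683 CPM with P-T3H2. Of these 9 markers 5 could be tested, and 1 rose and 2 fell (median -0.85, and -0.45 with all libraries). CD163 and MARCO had 0 counts in every library. Of 7 fibroblast or stellate markers 4 could be tested, and 1 rose (median 0.33, and 0.07 with all libraries). Their sums were 48.5 to 58.5 CPM with P-T3H2 and 39.9 to 59.1 CPM with P-T3H2-2A. Of 5 endothelial markers 2 could be tested, and 1 rose and 1 fell. Their median, only the midpoint of these 2, was 1.22, and 0.12 with all libraries. The 1 that rose passed the filter without the library labelled P-T3H2-2A-3 only through its counts with P-T3H2, so nothing is read from its rise. KDR and TEK had 0 counts in every library. In bulk RNA, fewer cells of a type and less RNA per cell cannot be told apart.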

How the data were processed

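Gene expression was measured by RNA sequencing in 6 libraries. The authors deposited 1 table of 50868 genes with raw gene counts and FPKM values per library, per the file headers. The submitters' processing notes name HISAT2 2.0.4, StringTie 1.3.3b and edgeR, with no roles, and a mouse build, whereas the table lists human genes: all 10 genes described have the same coordinates in GENCODE release 29 (GRCh38), so GRCh38 is used. Neither the strand setting nor the handling of multi-gene reads is given in the sources used. FPKM equalled the counts over the library total and 1 fixed length per gene, within a relative tolerance of 0.001, for 13364 of 13364 genes with at least 20 counts in each library.

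The whole table was tested by the robust quasi-likelihood method of edgeR 4.0.16 in R 4.3.3. Genes passed filterByExpr (minimum count 10, total 15), libraries were scaled by TMM, the model held the group alone, and p-values were adjusted by Benjamini-Hochberg over all genes tested, at 0.05. The SE of a log2 fold change is its size over the square root of F. Alternatives were DESeq2 1.42.0, limma 3.58.1 (voom, and a trended fit on log2 FPKM with pseudocounts of 1 and 0.1 for genes reaching 1 FPKM in 3 or more libraries), other scalings and filters, the replicate number as a block, and leaving out each library. The edgeR (with and without the block), DESeq2 and voom fits were tested on simulated data in which no library went against its label. Likeness used log2 CPM with a prior count of 2. Intervals and the floor of 3 counts cover counting error only, and depth was 17434442 to 21374732 counts per library.

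The 10 genes, the lists, motifs and tests were chosen with earlier results of these data known, and the emphasis on the comparison without the library labelled P-T3H2-2A-3 follows from those results, so its p-values are not independent evidence. Genes named outside the 10 came from a fixed selection by role, from the called genes of the lists, and from the rule of likeness (the 2 nearest genes of each gene with a mean of at least 5 CPM). IL6, OSM, MARCO, KDR and TEK, all listed, were named after their values were seen. Listed genes that are not named are counted with their lists. The values of 1 listed gene are not reported here. Ids were taken from the table, the copy with most counts where a name was repeated.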

Additional observations from a re-analysis of the deposited data

How the results depend on the processing

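With all 6 libraries edgeR called 1 gene in the whole table, none of the 10 and none of the 138 surrounding genes. DESeq2 gave 117, 2 and 6, limma-voom 3 genes in all, no filter beyond 1 count 4, limma-trend on log2(FPKM + 1) 2, and the replicate block 0, with 0 of the 10 genes called under the block. RLE size factors, library totals, a mean of at least 5 CPM and log2(FPKM + 0.1) gave 1. Leaving out 1 library gave 0 to 7390 genes, 0 to 4 of the 10 and 0 to 75 surrounding genes, and every high value was that without the library labelled P-T3H2-2A-3; without any other library 0 of the 10 and 0 surrounding genes were called. Chosen after the data were seen, DESeq2 without that library gave 6643, 3 and 66, and library totals without it 7381, 4 and 73; the cause was not tested. ORM1, ORM2, HP and SAA4 stayed lower and HPX higher under every alternative that gave a value, with log2 fold changes of -2.82 to -1.90, -2.57 to -1.69, -2.53 to -1.70, -0.44 to -0.32 and 0.01 to 0.17. SOCS3 ran from -0.07 to 0.30. Whether the replicate numbers pair the libraries could not be told from deviations from the group means. Same-numbered libraries correlated in these by -0.05, 0.16 and 0.11, and not every library correlated best with its own number. In P-T3H2-2A the deviations mainly set the library labelled P-T3H2-2A-3 apart from replicates 1 and 2, so they cannot decide. Depth limits SAA1, SAA2, LBP and CRP, of which no difference could be seen.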
